A study of Mus musculus with 3 samples.

Results

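Regulatory T cells of the mouse jaw were followed here after head and neck irradiation, as 113 single T cells with Foxp3 messenger RNA among 20504 cells kept from 3 libraries. Foxp3 is the transcription factor that defines regulatory T cells, the CD4 lineage that restrains other lymphocytes. These cells take up interleukin-2 through the high-affinity receptor chain CD25, encoded by Il2ra, and carry the inhibitory receptor CTLA-4, which removes costimulatory ligands from antigen-presenting cells. In barrier tissues, muscle and bone, a further set that carries the interleukin-33 receptor ST2, encoded by Il1rl1, has been tied to tissue repair through the growth factor amphiregulin. A cell was counted as Foxp3-positive when it held at least 1 Foxp3 UMI, at least 2 UMIs of Cd3d, Cd3e and Cd3g together, no UMI of Cd8a or Cd8b1 and at most 1 UMI of Cd79a and Cd79b. A UMI is 1 counted messenger RNA molecule. Kept cells are those with 500 UMIs or more from 250 genes or more, of which no more than 15% were mitochondrially encoded. The cut on Foxp3 is a measured value, so the Foxp3 level of these cells describes the choice and supports nothing.

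The study used 24 male wild-type C57BL/6 mice aged 10 weeks, in 3 groups. One group was killed 1 day after a single 10 Gy dose to the head and neck, another 7 days after the same dose, and a control group was untreated. These are called 1d, 7d and Ctrl. Jaw tissue from the 8 mice of a group was pooled, digested with collagenase II, frozen, thawed and read as 1 droplet library with 3′ chemistry, so each group is 1 library and no difference between groups has a replicate check. Intervals below are exact 95% intervals that cover counting error only, and no p-value is given. The 1d and 7d comparisons share the Ctrl library.

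Ctrl held 71 Foxp3-positive cells among 8880 kept cells, 1d held 11 among 5127 and 7d held 31 among 6497. Their median depth was 2670 UMIs in Ctrl, 3098 in 1d and 2624 in 7d. Summed, they gave 230462, 36504 and 138094 UMIs, so the 1d values rest on the fewest molecules. No cell barcode was shared between libraries among these 113 cells. In 7d, 3 of the 31 cells had over 5% haemoglobin UMIs. These 3 held 16098 of the 16218 haemoglobin UMIs of the group and 28.7% of all its UMIs, and haemoglobin made up 11.7% of the UMIs with them and 0.122% without them. No cell of 1d was mixed in this way or held at least 10 UMIs of the neutrophil genes S100a8, S100a9, Ngp and Camp, and 5 of the 71 cells of Ctrl were or did. These 8 cells are called mixed cells below, by limits set after seeing the data, and the main 7d values are given with and without them. The same limits marked 4 conventional CD4 T cells of Ctrl and 3 of 7d, a class defined below. Ratios to conventional CD4 cells and ratios of ratios that are given without mixed cells leave out the mixed cells of both classes. Where a 7d value is given once and not said to be without mixed cells, it includes them. Summed neutrophil markers stood at 4174 counts per 1000000 UMIs (CPM) in the Foxp3-positive cells of Ctrl, 1315 in 1d and 268 in 7d, with 11, 6 and 6 of 11 markers detected. Summed megakaryocyte markers were at 0 in all 3, and B cell markers were at 56.4, 54.8 and 0 CPM. The part of such RNA in the differences below was not tested, except where values without mixed cells are given.

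Promoter sequences of 4 genes known from regulatory T cells are shown because the levels of these genes carry most of the description below. They are RefSeq windows on GRCm38.p6, from 250 bases before to 50 bases after an annotated start, 5′ to 3′ on the gene's strand. Capitals mark matches, on either strand, to short motifs: TTCNNNGAA for STAT factors, GGAAAA for NFAT, TGANTCA for AP-1 and TGTGGT for RUNX. Of 32817 such windows, 8.29% held the STAT motif, 23.3% the NFAT motif, 7.81% the AP-1 motif and 16.8% the RUNX motif.
Foxp3, chrX:7580233-7580532, plus strand: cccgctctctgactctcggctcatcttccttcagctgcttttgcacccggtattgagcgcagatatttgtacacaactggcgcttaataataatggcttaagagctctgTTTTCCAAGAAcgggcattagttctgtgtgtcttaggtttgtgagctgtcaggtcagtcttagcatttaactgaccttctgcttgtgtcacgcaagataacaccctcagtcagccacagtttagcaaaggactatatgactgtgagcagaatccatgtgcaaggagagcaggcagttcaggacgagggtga
Ctla4, chr1:60908775-60909074, plus strand: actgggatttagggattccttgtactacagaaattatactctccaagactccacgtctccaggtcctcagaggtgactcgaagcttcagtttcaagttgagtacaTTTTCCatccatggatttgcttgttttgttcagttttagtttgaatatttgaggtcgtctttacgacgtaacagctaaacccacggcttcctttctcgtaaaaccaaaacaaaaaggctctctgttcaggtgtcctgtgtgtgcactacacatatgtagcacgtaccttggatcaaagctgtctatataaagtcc
Tnfrsf9, chr4:150927749-150928048, plus strand: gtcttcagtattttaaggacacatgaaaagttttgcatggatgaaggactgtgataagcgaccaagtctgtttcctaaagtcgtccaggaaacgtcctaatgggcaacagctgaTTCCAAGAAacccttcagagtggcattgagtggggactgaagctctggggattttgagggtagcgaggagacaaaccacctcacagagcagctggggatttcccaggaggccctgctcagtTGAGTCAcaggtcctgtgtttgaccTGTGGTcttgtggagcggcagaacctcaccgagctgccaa
Il2ra, chr2:11642542-11642841, plus strand: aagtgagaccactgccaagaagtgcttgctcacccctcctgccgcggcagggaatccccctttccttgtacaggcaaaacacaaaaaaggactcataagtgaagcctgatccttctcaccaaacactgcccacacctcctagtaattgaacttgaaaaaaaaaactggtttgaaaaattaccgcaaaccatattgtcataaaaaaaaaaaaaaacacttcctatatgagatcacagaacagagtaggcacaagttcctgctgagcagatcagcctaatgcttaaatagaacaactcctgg
The Foxp3 window shown held an NFAT match at position -141, counted from the start, which overlaps a STAT match at -139. The Ctla4 window held an NFAT match at -145. The Tnfrsf9 window shown held a STAT match at -136, an AP-1 match at -15 and a RUNX match at 11, and no motif searched lies in the Il2ra window. Both of these genes have another annotated start: the other Foxp3 window, chrX:7579426-7579725, held none of the 4 motifs, and the other Tnfrsf9 window, chr4:150919905-150920204, held only an NFAT match, at -138. A match is a string of letters and not a bound site. In the GENCODE vM21 annotation of GRCm38 the genes themselves span chrX:7573644-7595245 (Foxp3), chr1:60887000-60915832 (Ctla4), chr4:150914562-150946102 (Tnfrsf9) and chr2:11642807-11693193 (Il2ra).

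The label of these cells was checked on genes that the choice did not use. Of 8 regulatory genes (Ctla4, Ikzf2, Il2ra, Tnfrsf4, Tnfrsf18, Tnfrsf9, Lrrc32 and Icos), 106 of the 113 Foxp3-positive cells had UMIs of at least 3, or 93.8%, and none had 0. By library this held for 69 of 71 cells in Ctrl, 11 of 11 in 1d and 26 of 31 in 7d, with medians of 5, 6 and 5 genes. Conventional CD4 T cells, chosen by the same limits but with no Foxp3 UMI and at least 1 Cd4 UMI, reached 3 genes in 75 of 155 cells, or 48.4%, and 28 of them had none. In CD8 T cells, 81 of 845 had at least 3. Median depths were 2761, 3042 and 4108 UMIs in the Foxp3-positive, conventional CD4 and CD8 cells, so the Foxp3-positive cells had the most of these genes at the lowest depth. Foxp3 messenger RNA was sparse: 34 of 71 cells in Ctrl, 3 of 11 in 1d and 15 of 31 in 7d held a single UMI of it, and the most in any cell was 6. A regulatory T cell with no Foxp3 UMI would be missed, and counted as conventional if it held a Cd4 UMI. The part of such cells in the levels of the conventional class, and in ratios and shares that use it, was not tested. The 52 cells with 1 Foxp3 UMI had 839 CPM of Ctla4 and 999 of Ikzf2, against 983 and 1275 CPM in the 61 cells with 2 or more. Just outside the limits, 29 cells with Foxp3 but a single CD3 UMI had 600 CPM of Ctla4 and 607 of Ikzf2, and conventional CD4 cells had 283 and 219. A Cd4 UMI was found in 40 of the 113 cells. Free RNA can place a UMI in a cell that does not make it. Foxp3 UMIs were found in 6 of 3444 neutrophil-type cells of Ctrl (0.174%), 2 of 2279 in 1d (0.0878%) and 0 of 911 in 7d. The exact interval of this 7d share reaches up to 0.404%. Among CD3-positive cells without CD8 UMIs the shares were 9.28% in Ctrl, 11.96% in 1d and 2.97% in 7d. Median depths were 2202, 7984 and 11622 UMIs in the neutrophil-type cells and 3342, 3994 and 3548 in these T cells.

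Against conventional CD4 T cells, the Foxp3-positive cells had more messenger RNA of receptors and regulators known from regulatory T cells, with Klrg1, Il1rl1 and Il2ra furthest apart among those named here. Il1rl1, which encodes ST2, was at 456 CPM in Ctrl, 411 in 1d and 246 in 7d in Foxp3-positive cells, against 25.1, 56.5 and 0 CPM in conventional CD4 cells. Over the 3 libraries summed this was 380 against 16.9 CPM, a ratio of 22.4 (12.2 to 45.9). Il1rl1 lay in only 18 of 71 Foxp3-positive cells of Ctrl, 4 of 11 of 1d and 8 of 31 of 7d. In conventional CD4 cells it had 11 UMIs over the 3 libraries, in 4 of 69 cells of Ctrl and 1 of 11 of 1d. Klrg1, an inhibitory lectin receptor of terminally differentiated cells, had 46.9 against 1.54 CPM (ratio 30.5, 4.84 to 1266). Areg, which encodes amphiregulin, had 136 against 43.1 CPM (ratio 3.15, 1.96 to 5.16). Ccr8, a chemokine receptor of tissue regulatory T cells, had no UMI in either class.

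Among receptors of interleukin-2 and TNF family ligands, Il2ra was at 318 CPM in Foxp3-positive cells and 21.6 in conventional CD4 cells (ratio 14.8, 8.49 to 27.8). Within libraries its ratio was 16.5 in Ctrl, 5.82 in 1d and 7.38 in 7d. In Ctrl, 26 of the 109 Il2ra UMIs of Foxp3-positive cells lay in 1 cell. Tnfrsf9, the costimulatory receptor 4-1BB, had a ratio of 6.23 (4.97 to 7.87), Tnfrsf18, which encodes GITR, 2.68 (2.10 to 3.43), and Tnfrsf4, which encodes OX40, 2.48 (2.05 to 3.01). Lrrc32 encodes GARP, which holds latent TGF-beta on the surface, and Itgb8 encodes an integrin chain that frees TGF-beta from its latent form. The 2 genes had ratios of 9.89 (5.98 to 17.3) and 10.0 (3.46 to 39.6). Nt5e encodes CD73, the enzyme that makes adenosine, and had a ratio of 3.74 (2.67 to 5.30). Ctla4 was at 1146 CPM in Ctrl, 1041 in 1d and 514 in 7d in Foxp3-positive cells, and at 380.0, 212 and 210.3 in conventional CD4 cells, a ratio of 3.25 (2.72 to 3.90) over all. Icos, the inducible costimulator, was close to its level in conventional cells, at 1.43 times (1.19 to 1.72), and Il10, which encodes the suppressive cytokine interleukin-10, was at 44.4 against 33.9 CPM (ratio 1.31, 0.663 to 2.56), an interval that includes 1. Of transcription factors, Ikzf2 (Helios) had a ratio of 5.28 (4.37 to 6.42) and Ikzf4 (Eos) of 7.45 (4.37 to 13.4). The Ikzf2 ratio was 5.86, 3.74 and 4.76 in Ctrl, 1d and 7d.

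**Figure D1:**
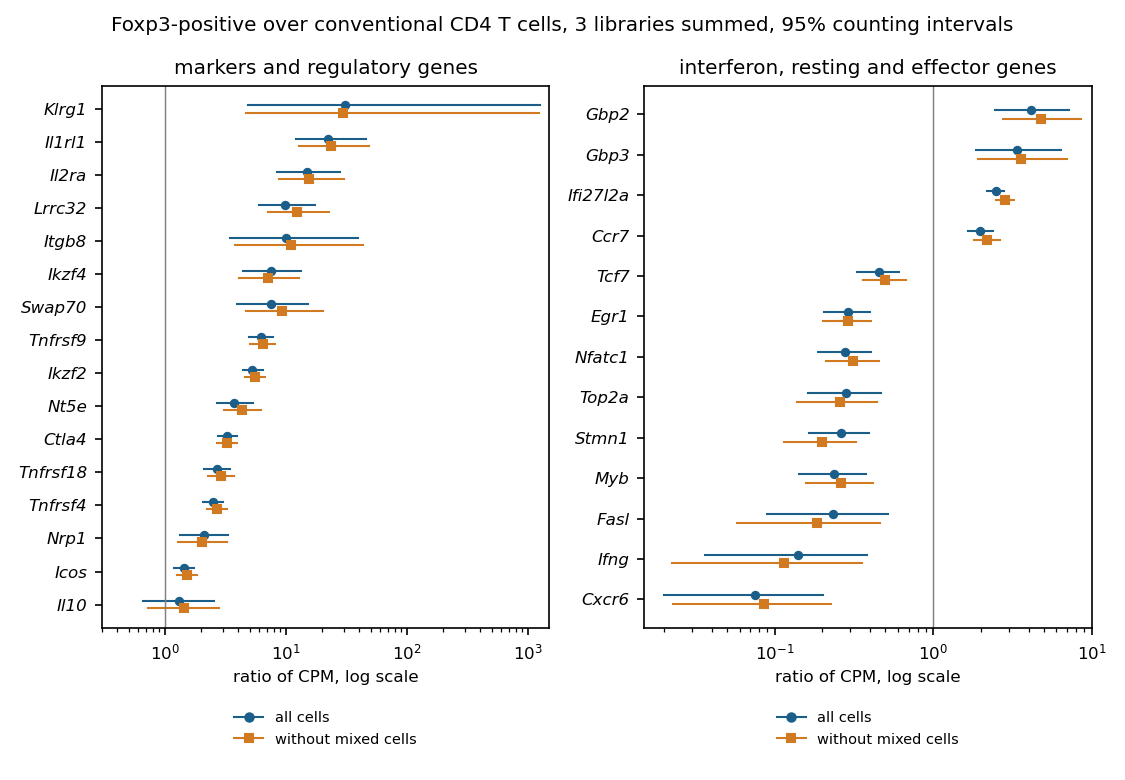
Ratio of CPM in Foxp3-positive over conventional CD4 T cells on a log scale, for regulatory genes on the left panel and interferon, resting and effector genes on the right; points are all cells (circles) and cells without mixed cells (squares), and lines are exact 95% counting intervals. Il1rl1 at 22.4, Il2ra at 14.8 and Ikzf2 at 5.28 lie right of 1, Cxcr6 at 0.0754 and Ifng at 0.139 lie left of it, and the values with and without mixed cells lie close together.

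Some genes of effector T cells were lower in Foxp3-positive cells. Cxcr6, a chemokine receptor of tissue-resident effector cells, had 9.88 against 131 CPM (ratio 0.0754, 0.0201 to 0.200), Ifng, which encodes interferon-gamma, 9.88 against 70.8 CPM (ratio 0.139, 0.0364 to 0.382) and Fasl, which encodes the death ligand FasL, 17.3 against 73.9 CPM (ratio 0.234, 0.0893 to 0.520). The conventional CD4 cells also held RNA of other cells. Summed NK and innate lymphoid markers stood at 280, 311 and 671 CPM in them in Ctrl, 1d and 7d. In Foxp3-positive cells those markers stood at 560, 27.4 and 109 CPM. In Ctrl, mesenchymal markers were at 3797 CPM in conventional and 117 in Foxp3-positive cells, and epithelial markers at 1843 and 17.4. Their part in the ratios was not tested. Tcf7, the factor TCF-1 of naive and memory T cells, had a ratio of 0.452 (0.331 to 0.610). Across 5917 genes with at least 20 UMIs over both classes, 277 (4.68%) were at least 2-fold higher in Foxp3-positive cells and 418 (7.06%) at least 2-fold lower, and the median log2 ratio was -0.01. These shares are given as background, since the cut on Foxp3 made the 2 classes. Of the suppressive receptors and enzymes, 7 of 15 measured genes were at least 2-fold higher and none 2-fold lower (median log2 ratio 0.59). For the TNF receptor and NF-kB list this was 6 of 19 and none (0.61), and for the interferon list 11 of 26 and none (0.88). The interferon median differed between libraries, at 0.14 over 16 genes in Ctrl, 1.17 over 4 genes in 1d and 1.59 over 15 genes in 7d, so the value over all libraries is not one of Ctrl. Effector and tissue regulatory genes had 9 of 26 at least 2-fold higher and 3 lower (0.49). The cycling list lay on the other side, with none of 23 genes 2-fold higher and 9 lower (-0.89), as did the dissociation and immediate early list, with none of 27 higher and 10 lower (-0.65). In the interferon list Gbp2, a guanylate-binding protein of interferon-gamma responses, had a ratio of 4.12 (2.45 to 7.19), and reads of this gene family can be split among near-identical copies. Ifi27l2a, an interferon-induced gene of the mitochondrial membrane, had a ratio of 2.48 (2.18 to 2.81), at 1597 CPM in Ctrl, 1288 in 1d and 1593 in 7d in Foxp3-positive cells.

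Of the other lists against conventional CD4 cells, the median log2 ratio was 0.40 for the IL-2 and STAT5 pathway (2 of 16 genes at least 2-fold higher), 0.41 for cytokines and cytokine receptors (4 of 19) and 0.25 for the transcription factors (4 of 31 higher and 4 lower). Chemokine receptors and adhesion genes had 0.15, cell survival and death genes 0.16, costimulation and T cell receptor signalling genes -0.03 and glucocorticoid-responsive genes -0.03. The p53 targets had -0.15 and the glycolysis, hypoxia and oxidative stress list -0.13. These last 6 medians lie nearer to the all-gene median than those of the lists described first. The resting and recirculating list had -0.12 over the 3 libraries summed (1 of 13 higher and 3 lower), but its median was 0.32 in Ctrl, -0.09 in 1d and -0.77 in 7d (-0.51 without mixed cells).

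Foxp3-positive cells made up 0.799% of kept cells in Ctrl (71 of 8880, interval 0.625 to 1.01), 0.215% in 1d (11 of 5127, 0.107 to 0.384) and 0.477% in 7d (31 of 6497, 0.324 to 0.677). Among kept cells both irradiated libraries therefore held a lower share than Ctrl, at 0.268 times (0.128 to 0.510) in 1d and 0.597 times (0.378 to 0.922) in 7d. Among CD3-positive cells the order was different, with 6.50% of 1093 cells in Ctrl, 8.09% of 136 in 1d and 2.04% of 1521 in 7d. The 7d share was 0.314 times that of Ctrl (0.199 to 0.485), and the 1d share 1.25 times (0.595 to 2.37), an interval that includes 1. Of CD4-type T cells, meaning Foxp3-positive and conventional CD4 cells together, Foxp3-positive cells were 71 of 140 in Ctrl (50.7%), 11 of 22 in 1d (50.0%) and 31 of 106 in 7d (29.2%). The 7d ratio was 0.577 (0.365 to 0.891) on this denominator. A Cd4 UMI was asked only of the conventional cells, and was found in 19, 4 and 17 of the Foxp3-positive cells of Ctrl, 1d and 7d. Asked of both, the shares were 19 of 88 cells in Ctrl, 4 of 15 in 1d and 17 of 92 in 7d, and the 7d ratio was 0.856 (0.418 to 1.74), an interval that includes 1. CD3-positive cells as a whole were also fewer in 1d, at 136 of 5127 kept cells against 1093 of 8880 in Ctrl. In 7d they were more numerous, at 1521 of 6497, while Foxp3-positive cells were fewer. Neutrophil-type cells, which enter the kept cells, numbered 3444 in Ctrl, 2279 in 1d and 911 in 7d. Depth enters these shares, since a deeper cell is more likely to show a Foxp3 UMI. Every cell was also thinned to 1000 UMIs before the choice. Then 19 of 388 CD3-positive cells remained Foxp3-positive in Ctrl, 0 of 43 in 1d and 6 of 458 in 7d. With 3 counts set as the limit, the 1d value allows a share of up to 6.98%. With a Cd4 UMI required of each Foxp3-positive cell, the 7d ratio among kept cells turned to 1.22 (0.597 to 2.485). The ratio among CD3-positive cells was then 0.643 (0.314 to 1.31), and both intervals include 1. The thinned shares are 4.90% in Ctrl and 1.31% in 7d, so the 1d share was not resolved at this depth. Fewer cells of a type and a lower yield of that type from digestion and thawing cannot be told apart in these data.

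**Figure D2:**
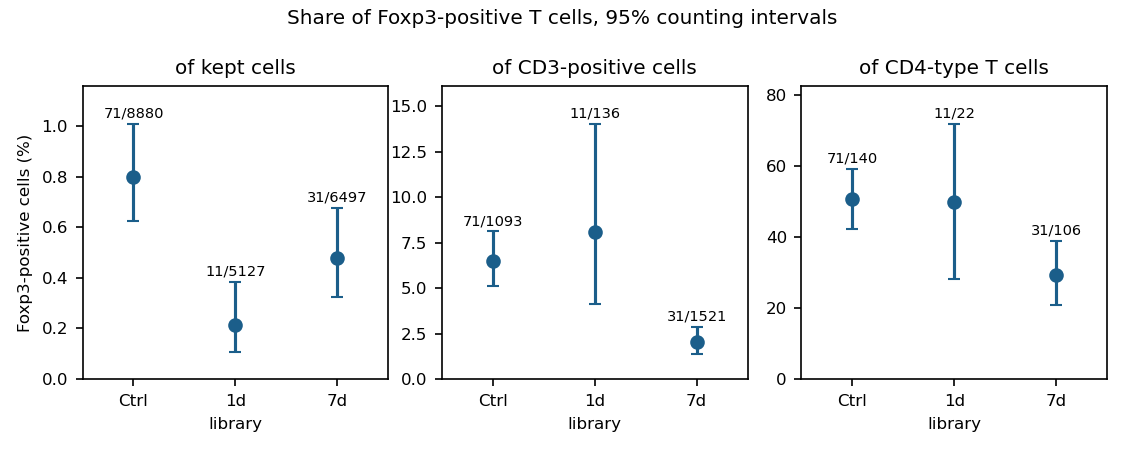
Share of Foxp3-positive T cells (%) in the Ctrl, 1d and 7d libraries, as a share of kept cells, CD3-positive cells and CD4-type T cells; points are shares, bars are exact 95% counting intervals and the labels give the cells counted. The 7d point lies below Ctrl in all 3 panels, and the 1d point lies below Ctrl among kept cells, at 0.215% against 0.799%, and near it in the other panels.

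Within the Foxp3-positive cells, Ccr7, the lymph node homing receptor, and the tissue genes Il1rl1, Klrg1 and Areg were seen together in 13 of the 113 cells. A Ccr7 UMI was seen in 45 of 71 cells in Ctrl (63.4%), 3 of 11 in 1d (27.3%) and 8 of 31 in 7d (25.8%). A UMI of Il1rl1, Klrg1 or Areg was seen in 23 of 71 (32.4%), 5 of 11 (45.5%) and 13 of 31 (41.9%). Both were seen in 9, 1 and 3 cells, and neither in 12, 4 and 13. The Ctrl cells thus mostly carried Ccr7. Cells with tissue genes but no Ccr7 were 14 of 71 in Ctrl (19.7%), 4 of 11 in 1d (36.4%) and 10 of 31 in 7d (32.3%), and these intervals overlap between libraries. Thinned to 1000 UMIs a cell, Ccr7 was seen in 51.4% of cells in Ctrl, 18.2% in 1d and 22.6% in 7d. At equal depth Ctrl thus again had the highest share of cells with Ccr7.

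At 7 days after irradiation, Foxp3-positive cells had less messenger RNA of genes that mark resting, recirculating T cells, while Ikzf2, Icos and Tnfrsf4 had ratios near 1 once mixed cells were left out. Satb1, a chromatin organiser that is active in naive T cells and in regulatory T cell precursors, was at 138 CPM in 7d (19 UMIs in 11 of 31 cells) against 1146 CPM in Ctrl (264 UMIs in 57 of 71 cells). Its ratio was 0.120 (0.0712 to 0.191), and 0.169 (0.0998 to 0.269) without mixed cells. In conventional CD4 cells the same ratio was 0.628, and the ratio in Foxp3-positive cells over that in conventional CD4 cells was 0.272 without mixed cells (0.155 to 0.459). Ccr7, the receptor for lymph node homing, was at 304 CPM in 7d (8 cells) and 924 CPM in Ctrl (45 cells), a ratio of 0.329 (0.231 to 0.460), or 0.445 (0.311 to 0.623) without mixed cells. Foxp1, a factor of T cell quiescence, had 232 CPM in 7d and 772 in Ctrl (0.300, and 0.428 without mixed cells), and Bach2, which holds T cells in a less differentiated state, 29.0 CPM and 174 CPM (0.167, and 0.225 without mixed cells). S1pr1, the receptor for exit from tissue into lymph, was at 406 CPM in 7d and 746 CPM in Ctrl (0.543, and 0.675 without mixed cells). In conventional CD4 cells the 7d/Ctrl ratio of these last 4 genes was 1.24 for Ccr7, 1.049 for Foxp1, 1.44 for Bach2 and 1.05 for S1pr1, so these levels were not lower in conventional cells. The ratio in Foxp3-positive cells over that in conventional ones, without mixed cells, was 0.365 (0.229 to 0.578) for Ccr7, 0.423 (0.251 to 0.707) for Foxp1, 0.157 (0.0369 to 0.533) for Bach2 and 0.626 (0.422 to 0.923) for S1pr1. All 4 intervals lie below 1. Tcf7, another gene of resting T cells, had a ratio of 1.39 (0.784 to 2.45) and of 1.85 (1.04 to 3.26) without mixed cells, and did not share this direction. Il6ra, an interleukin-6 receptor chain of the same list named after its values were seen, also had an interval above 1 without mixed cells.

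Read within libraries and with mixed cells included, Ccr7, Foxp1 and Satb1 set Foxp3-positive cells below or near conventional CD4 cells in 7d and above them in Ctrl. The Ccr7 ratio of Foxp3-positive to conventional CD4 cells was 0.786 (0.538 to 1.13) in 7d and 2.96 (2.30 to 3.85) in Ctrl. For Foxp1 it was 0.708 (0.460 to 1.07) in 7d and 2.48 (1.91 to 3.24) in Ctrl, and for Satb1 it was 0.248 (0.146 to 0.400) in 7d and 1.30 (1.09 to 1.55) in Ctrl. The Ccr7 ratio summed over libraries, 1.99 (1.66 to 2.39), is thus a value of Ctrl in the main, where most Foxp3-positive cells came from.

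Of receptors known from regulatory T cells, Il2ra was lower in 7d. It had 123 CPM in 7d (17 UMIs in 10 cells) and 473 CPM in Ctrl (109 UMIs in 35 cells). Its ratio was 0.260 (0.146 to 0.436), or 0.278 (0.143 to 0.498) without mixed cells. Conventional CD4 cells had too few Il2ra UMIs to set this apart, with a ratio of 0.582 there and a ratio of ratios of 0.447 (0.114 to 1.98). Of the 109 UMIs in Ctrl, 26 lay in 1 cell and 50 in 3 cells. Thinned to 1000 UMIs, Il2ra was seen in 25.7% of cells in Ctrl and 12.9% in 7d, with intervals that overlap. Ctla4 had 514 CPM in 7d and 1146 in Ctrl (0.449, 0.340 to 0.585, and 0.533 without mixed cells), Tnfrsf18 had 217 and 555 CPM (0.391, and 0.428 without mixed cells) and Lrrc32 109 and 347 CPM (0.313, and 0.434 without mixed cells). Conventional CD4 cells had ratios of 0.553 for Ctla4 and 0.370 for Tnfrsf18, so the lower level of these 2 genes was seen in both classes. Tnfrsf9 had a ratio of 0.462 (0.351 to 0.602), which was 0.651 (0.490 to 0.855) without mixed cells, but with cells thinned to 1000 UMIs its log2 ratio turned to 0.0724. Ikzf2 had 0.634, Icos 0.788 and Tnfrsf4 0.788 with mixed cells, and 0.861, 0.965 and 1.04 without them, with intervals that include 1. Foxp3 itself, which the choice sets, was at 586 CPM in Ctrl, 603 in 1d and 507 in 7d. Gzmb, which encodes the cytotoxic protease granzyme B, had 2 UMIs in 7d and 37 UMIs in 8 cells in Ctrl (ratio 0.0902, 0.0105 to 0.350, and 0.126 without mixed cells). Summed markers of NK and innate lymphoid cells, which also make granzyme B, stood at 560 CPM in Ctrl (8 of 9 detected, with 10 or more UMIs in 4 cells), 27.4 in 1d and 109 in 7d in the Foxp3-positive cells, and monocyte and macrophage markers at 352, 82.2 and 109 CPM. Their part in the Gzmb values was not tested. Elovl6, a fatty acid elongase, had no UMI in 7d and 65 UMIs in 31 cells in Ctrl, which is at least 12.98-fold lower with 3 counts set as the limit for the 7d cells, and the conventional CD4 cells had a ratio of 0.0642.

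Among the named genes, Nfkb1, Kdm6b, Nr4a3 and Cd69 were higher in 7d in both classes, and Itga4, Mapk6, Phlda1 and Rora in Foxp3-positive cells. Nfkb1, a subunit of NF-kB, was at 1274 CPM in 7d against 616 CPM in Ctrl (2.07, with an interval of 1.65 to 2.60), Kdm6b, a demethylase of histone H3 lysine 27, at 1014 and 325 CPM (3.12, 2.34 to 4.18) and Nr4a3, an orphan nuclear receptor induced by antigen receptor signals, at 637 and 226 CPM (2.82, 1.98 to 4.06). Cd69, which keeps T cells in tissue, was at 550.3 CPM in 7d and 260.3 in Ctrl (2.11, 1.49 to 3.02). Without mixed cells the 4 ratios were 2.53, 4.06, 3.71 and 2.69. Conventional CD4 cells had 1.65, 2.30, 4.14 and 1.82, so this direction was shared. In contrast, Itga4, the integrin chain of VLA-4 (282 CPM in 7d and 56.4 in Ctrl), Mapk6, an atypical kinase (159 and 34.7 CPM), and Phlda1 (319 and 122 CPM) had ratios of 5.01, 4.59 and 2.62 in Foxp3-positive cells and of 1.38, 0.841 and 0.910 in conventional ones, with ratios of ratios without mixed cells of 4.42 (1.81 to 11.1), 6.04 (2.10 to 18.4) and 3.01 (1.58 to 5.79). Rora, a factor of type 2 and tissue regulatory T cells, was at 1173 CPM in 7d and 833 in Ctrl, a ratio of 1.41 (1.14 to 1.75) and 1.88 (1.5 to 2.35) without mixed cells. Its ratio was 0.662 in conventional CD4 cells, and the ratio of ratios was 2.85 without mixed cells (2.06 to 3.94). Ptprc, which encodes CD45, and Pim1, a survival kinase, had ratios of 0.754 and 0.790 in Foxp3-positive cells and of 2.10 and 1.63 in conventional ones. Without mixed cells they were 0.941 (0.756 to 1.17) and 0.949 (0.804 to 1.12) in Foxp3-positive cells, intervals that include 1. The ratios of ratios were then 0.409 (0.306 to 0.546) and 0.516 (0.407 to 0.654), so it was the higher level in conventional cells that set the 2 classes apart.

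Some genes high in 7d lay in few cells. Isg15, a ubiquitin-like protein induced by interferons, had 3 UMIs in 3 cells in Ctrl, 9 UMIs in 1 cell in 1d and 54 UMIs in 8 of 31 cells in 7d. Of its 54 UMIs in 7d, 47 lay in 3 cells. Its 7d/Ctrl ratio was 30.04 (9.75 to 150.2), and 26.8 (6.67 to 233) without mixed cells. Mki67, a marker of dividing cells, had 27 UMIs in 3 cells in 7d and 2 in 1 cell in Ctrl (ratio 22.5, and 7.49 without mixed cells). Gpx1 and Cflar, the glutathione peroxidase and the caspase-8 inhibitor c-FLIP, had ratios of 5.75 and 3.65 with mixed cells and of 1.03 and 1.24 without them, so their higher level lay in those 3 haemoglobin-rich cells.

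Over 2938 genes with at least 20 UMIs in both groups together, 185 (6.3%) were at least 2-fold higher in 7d and 319 (10.9%) at least 2-fold lower, with a median log2 ratio of -0.12. Without mixed cells, 216 of 2581 (8.37%) were higher and 194 (7.52%) lower, with a median of 0.05. Against this background, 6 of 11 measured genes of the resting and recirculating list were at least 2-fold lower and 1 higher, with a median log2 ratio of -1.13, and 5 of 11 were lower without mixed cells, with a median of -0.89. In conventional CD4 cells none of 13 was 2-fold lower and the median was 0.09, where 8.08% of 4195 genes were 2-fold lower. Thinned to 1000 UMIs, 82.9% of Foxp3-positive cells in Ctrl, 63.6% in 1d and 67.7% in 7d had at least 2 UMIs of the resting list. These intervals overlap, so most cells of each library still held RNA of the list.

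**Figure D3:**
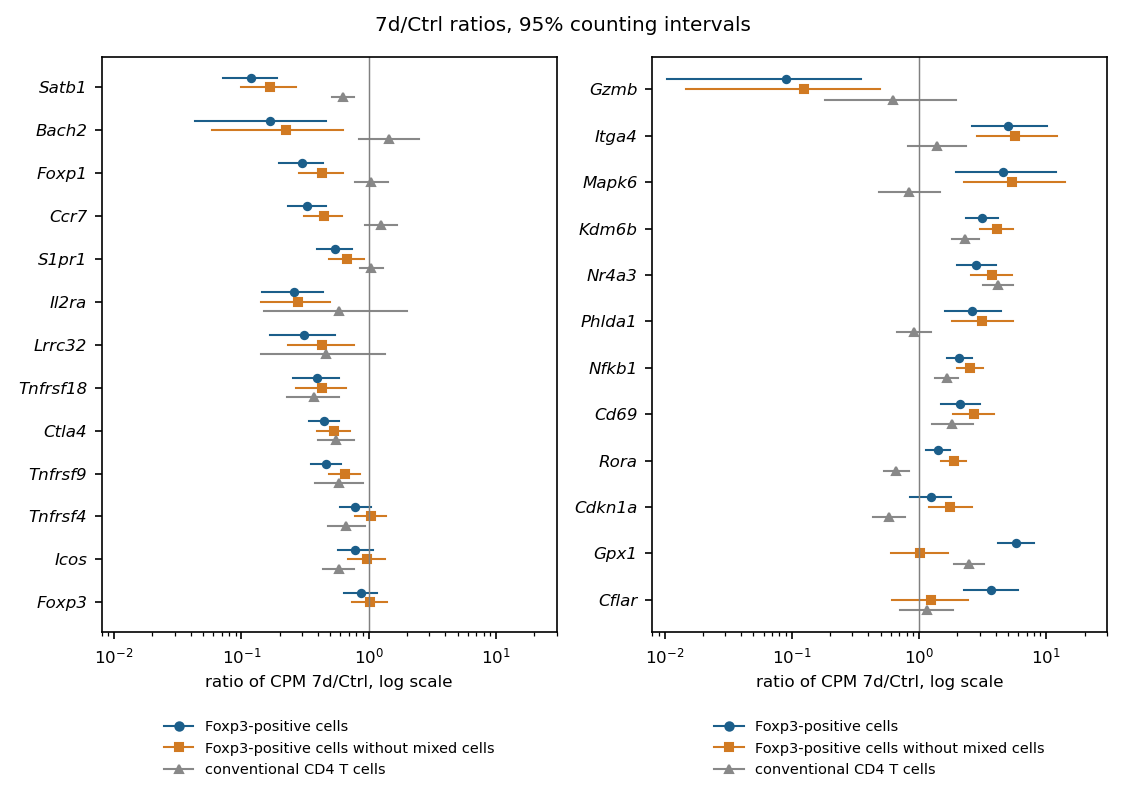
Ratio of CPM in 7d over Ctrl on a log scale for named genes, with exact 95% counting intervals, for Foxp3-positive cells (circles), Foxp3-positive cells without mixed cells (squares) and conventional CD4 T cells (triangles). Satb1, Bach2, Foxp1 and Ccr7 lie at or below 0.445 in Foxp3-positive cells with and without mixed cells, and Gpx1 moves to 1.03 without them.

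One day after irradiation, the 11 Foxp3-positive cells had less RNA of several resting genes, whereas Nt5e was higher than in Ctrl. Both directions held with intervals clear of 1 for the genes Klf2, Ccr7, Foxp1, Il7r and Nt5e on CPM and on totals scaled by TMM factors, which set aside genes with extreme ratios. Klf2, the factor that drives S1pr1 in quiescent T cells, was at 110 CPM in 1d (4 UMIs in 4 cells) and 456 CPM in Ctrl (105 UMIs in 42 cells), a ratio of 0.241 (0.0643 to 0.634). Conventional CD4 cells had a Klf2 ratio of 1.67, and the ratio of ratios was 0.144 (0.0362 to 0.429). Klf2 in 7d was at 464 CPM, near Ctrl. Satb1, far lower in 7d, had 30 UMIs in 9 of 11 cells in 1d and 264 UMIs in 57 of 71 cells in Ctrl. Thinned to 1000 UMIs, Satb1 was seen in 72.7% of cells in 1d and 60.0% in Ctrl, with intervals that overlap. Ccr7 had 384 CPM in 1d and 924 in Ctrl (0.415, 0.223 to 0.712), with 11 of its 14 UMIs in 1d in 1 of 3 cells, Foxp1 301 and 772 CPM (0.390, 0.191 to 0.715) and Il7r, the interleukin-7 receptor of long-lived T cells, 110 and 308 CPM (0.356, 0.0943 to 0.951). Il2ra had 82.2 CPM in 1d, from 3 UMIs in 2 cells, and 473 CPM in Ctrl (0.174, 0.0353 to 0.521). Of its 109 UMIs in Ctrl, 26 lay in 1 cell. Cd69, higher in 7d, was at 54.8 CPM in 1d and 260.3 in Ctrl (0.210, 0.0249 to 0.794).

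Several receptors had higher CPM in 1d. Icos was at 959 CPM in 1d against 551 CPM in Ctrl (1.74, with an interval of 1.16 to 2.55), Tnfrsf4 at 1151 and 707 CPM (1.63, 1.13 to 2.30) and Nt5e at 685 and 308 CPM (2.22, 1.35 to 3.55). With TMM factors the ratios were 1.349 (0.900 to 1.98) for Icos and 1.26 (0.876 to 1.78) for Tnfrsf4, intervals that include 1, and 1.72 (1.047 to 2.75) for Nt5e. Foxp3-positive cells stood further from conventional CD4 cells in Nt5e in 1d than in Ctrl, with a ratio of ratios of 5.08 (1.36 to 28.2), while those of Icos and Tnfrsf4 were 1.61 and 1.27 with intervals that include 1. B2m, the light chain of MHC class I, was at 5123 CPM in 1d and 3237 in Ctrl (1.58, 1.34 to 1.86), and 0.915 times in conventional CD4 cells, with a ratio of ratios of 1.73 (1.36 to 2.20). Aebp2, an accessory subunit of Polycomb complex PRC2, had 1096 CPM in 1d and 459.9 in Ctrl (2.38, 1.61 to 3.46). Maf, a factor that drives Il10 in T cells, had 767 and 412 CPM (1.86, 1.18 to 2.86), Areg 356 and 122 CPM (2.93, 1.39 to 5.85) and Il10 had 6 UMIs in 2 cells in 1d against 6 UMIs in 1 cell in Ctrl. With TMM factors the ratio of Maf was 1.44 (0.911 to 2.22), an interval that includes 1, and those of B2m (1.23, 1.04 to 1.44), Aebp2 (1.85, 1.25 to 2.68) and Areg (2.27, 1.08 to 4.53) had intervals above 1. Of the 1d UMIs, 7 of 13 for Areg and 5 of 6 for Il10 lay in 1 cell. Cd83, a surface protein of activated lymphocytes, had 13 UMIs in 3 cells in 1d and 16 UMIs in 8 cells in Ctrl (5.13, 2.27 to 11.4, and 3.98 with TMM factors, 1.76 to 8.82). Ctla4 (0.909), Ikzf2 (1.14) and Tnfrsf18 (1.18) had intervals that include 1.

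Over 2229 genes with at least 20 UMIs in both groups together, 176 (7.9%) were at least 2-fold higher in 1d and 298 (13.4%) at least 2-fold lower, with a median log2 ratio of 0.04. This split depends on scaling: with TMM factors 66 were higher and 464 lower, and the median of all genes moved by -0.37 to -0.33. Against CPM scaling, 6 of 10 measured genes of the resting list were at least 2-fold lower and 0 of 10 were higher at all, with a median of -1.26, which was -0.35 with cells thinned to 1000 UMIs. In conventional CD4 cells 4 of 12 were 2-fold lower, with a median of -0.20, and 13.4% of 2914 genes there were 2-fold lower.

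**Figure D4:**
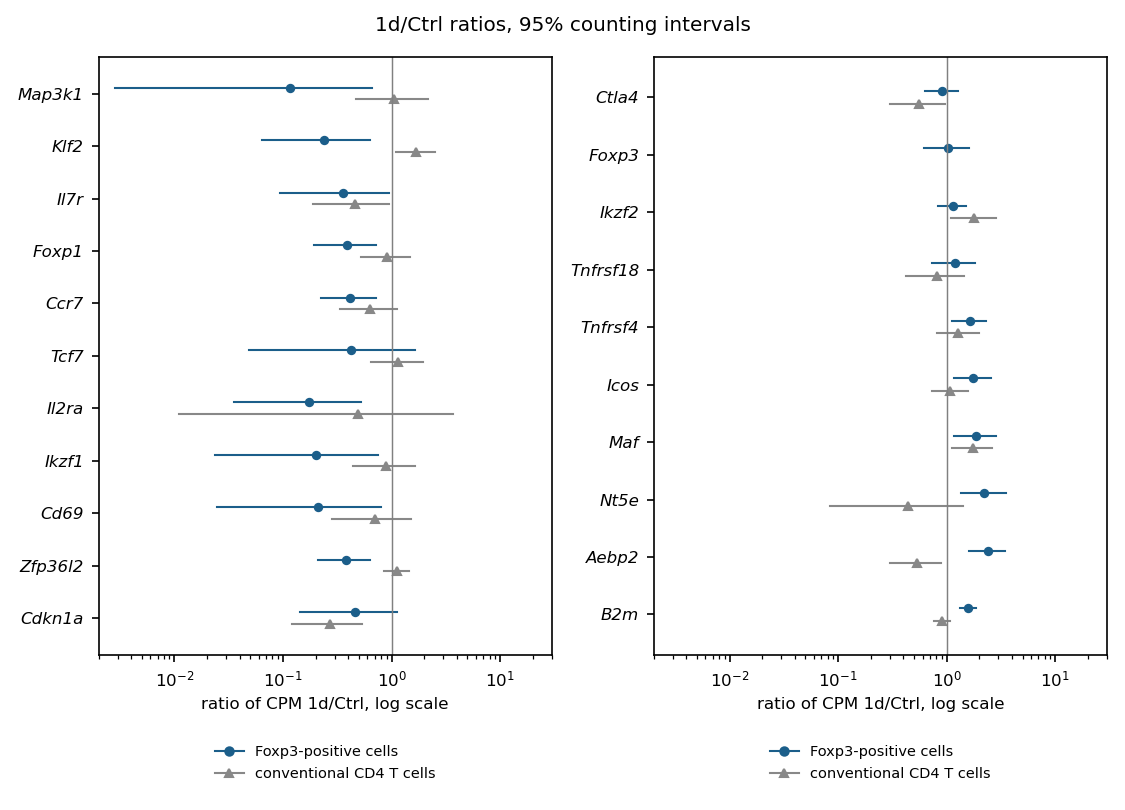
Ratio of CPM in 1d over Ctrl on a log scale for named genes, with exact 95% counting intervals, for Foxp3-positive cells (circles) and conventional CD4 T cells (triangles). Klf2 lies at 0.241 in Foxp3-positive cells and at 1.67 in conventional CD4 cells, and Nt5e lies at 2.22 in Foxp3-positive cells.

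The suppressive receptors and enzymes had 3 of 10 measured genes at least 2-fold higher and 1 lower in 1d (median log2 ratio 0.61), whereas in 7d 0 of 10 were 2-fold higher and 3 lower (-0.64, and -0.27 without mixed cells). The transcription factor list had 1 of 24 higher and 4 lower in 1d (0.03), and 1 of 26 higher and 6 lower in 7d (-0.43, and -0.06 without mixed cells). In the IL-2 and STAT5 list 0 of 13 were 2-fold higher and 3 lower at both times, with medians of -0.25 in 1d and -0.37 in 7d (-0.01 without mixed cells, and turned to 0.21 with thinned cells). The TNF receptor and NF-kB list (0.14 in 1d and -0.08 in 7d) and the costimulation and T cell receptor list (0.20 and -0.23) lay near the all-gene medians, as did the chemokine receptor and adhesion list (-0.03 and 0.12). Without mixed cells these 7d medians were 0.13, 0.13 and 0.05. Effector and tissue regulatory genes had medians of 0.19 in 1d and -0.44 in 7d, and cytokines and cytokine receptors of 0.21 and -0.55, which without mixed cells in 7d were -0.17 and -0.13. The resting and recirculating list was the one that lay lowest at both times.

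**Figure D5:**
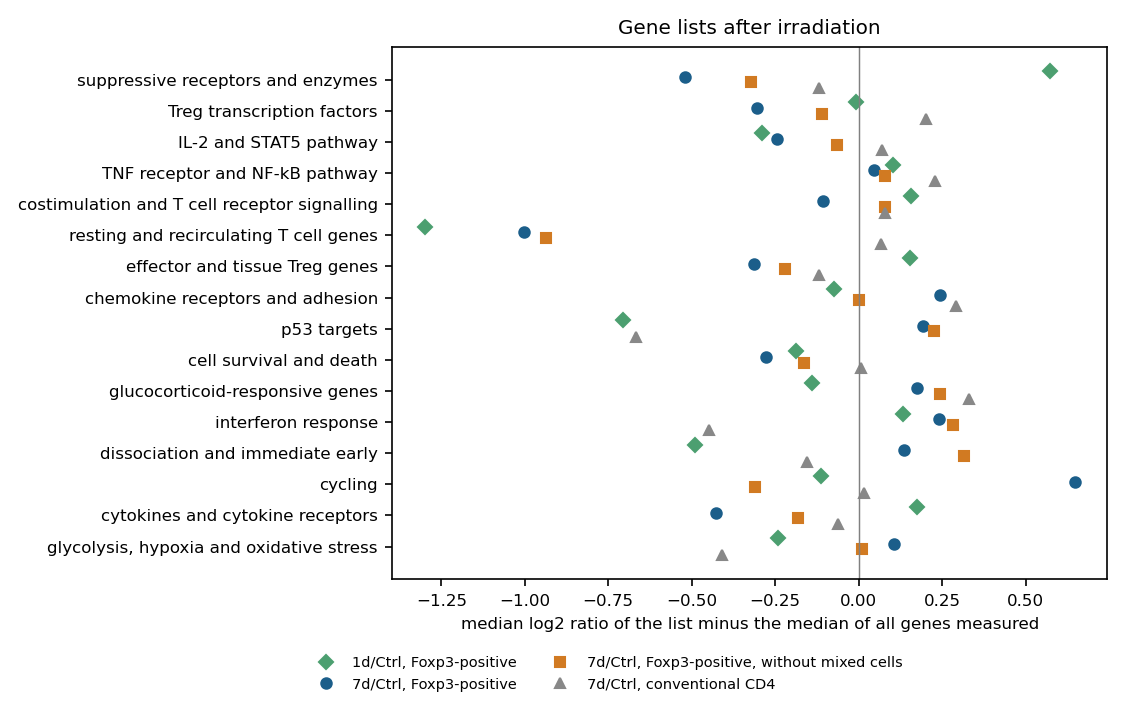
Median log2 ratio of each gene list minus the median of all genes measured, for 1d over Ctrl (diamonds), 7d over Ctrl (circles) and 7d over Ctrl without mixed cells (squares) in Foxp3-positive cells, and 7d over Ctrl in conventional CD4 T cells (triangles). The resting and recirculating list lies furthest left in Foxp3-positive cells, at list medians of -1.26 in 1d and -1.13 in 7d before the all-gene median is taken off, and the cycling list changes side without mixed cells.

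Genes that respond to DNA damage through p53 did not move one way in Foxp3-positive cells in 7d. There 7 of 13 measured genes lay above Ctrl and 6 below, and all 8 measured in 1d lay below Ctrl. Over all genes measured, the median log2 ratio was -0.12 in 7d and 0.04 in 1d. Cdkn1a, which encodes the cell cycle inhibitor p21, was at 299 CPM in Ctrl (34 of 71 cells), 137 CPM in 1d (5 UMIs in 3 of 11) and 369 CPM in 7d (17 of 31). The 7d ratio was 1.23 (0.842 to 1.797) with mixed cells and 1.76 (1.19 to 2.59) without them, against 0.583 in conventional CD4 cells, and the ratio of ratios without mixed cells was 2.91 (1.78 to 4.77). In 1d it was 0.458 (0.144 to 1.12) in Foxp3-positive cells and 0.271 in conventional ones. Mdm2, the ubiquitin ligase that degrades p53, was at 73.8, 54.8 and 86.9 CPM in Ctrl, 1d and 7d, and Ccng1, the p53 target cyclin G1, at 65.1, 54.8 and 36.2 CPM. Over the p53 list, 0 of 13 were 2-fold higher and 2 lower in 7d (median 0.07, and 0.28 without mixed cells), and 0 of 8 were 2-fold higher and 2 lower in 1d (-0.67). In conventional CD4 cells the medians were -0.65 in 7d and -0.49 in 1d. Of all genes measured in Foxp3-positive cells, 6.3% were 2-fold higher and 10.9% lower in 7d, and 7.9% and 13.4% in 1d. Thinned to 1000 UMIs, 60.0% of cells in Ctrl, 63.6% in 1d and 83.9% in 7d had at least 2 UMIs of the p53 list. Their intervals overlap. Without mixed cells the Ctrl share was 75.4%, with 49 of 65 cells, against 42 of 70 with them. Leaving out cells cannot raise a count, so this move holds the spread between random thinnings. Of survival genes, Bcl2, which blocks mitochondrial apoptosis, was at 104 CPM in Ctrl, 0 in 1d and 29.0 in 7d, a 7d ratio of 0.278 (0.0701 to 0.810) that was 0.357 (0.0900 to 1.04) without mixed cells, an interval that includes 1. Mcl1, another member of its family, was at 581, 575 and 449 CPM, and its 7d ratio was 0.772 with and 1.051 without mixed cells. The survival list had medians of -0.15 in 1d and -0.40 in 7d, the second of which was -0.11 without mixed cells. Slc6a6, the taurine transporter, was at 95.5, 27.4 and 36.2 CPM and Tsc22d3, the glucocorticoid-induced leucine zipper, at 109, 27.4 and 86.9 CPM, with 1 UMI each in 1d. The glucocorticoid list had medians of -0.10 in 1d and 0.05 in 7d, and the glycolysis, hypoxia and oxidative stress list of -0.20 (0.0665 with thinned cells) and -0.02. Without mixed cells these 7d medians were 0.29 and 0.06.

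Of the remaining lists, the interferon genes had 2 of 10 at least 2-fold higher and 2 lower in 1d (0.17), and 6 of 16 higher and 2 lower in 7d (0.12, with 4 of 13 higher without mixed cells). Thinned to 1000 UMIs, 71.4% of Foxp3-positive cells in Ctrl, 63.6% in 1d and 45.2% in 7d had at least 2 UMIs of this list. The Ctrl and 7d intervals, 59.4 to 81.6 and 27.3 to 64.0, overlap. Conventional CD4 cells had shares of 68.1% in Ctrl, 50.0% in 1d and 41.3% in 7d. The cycling list had a median of -0.07 over 6 genes in 1d and of 0.52 over 11 genes in 7d, where 3 were 2-fold higher, and of -0.26 over 7 genes in 7d without mixed cells. Dissociation and immediate early genes, which respond to tissue digestion, had medians of -0.45 in 1d and 0.01 in 7d (0.37 without mixed cells). In that list 6 of 24 genes were at least 2-fold lower in 1d. Their part in the values of Cd69 and Nr4a3, which such handling also induces, was not tested.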

How the data were processed

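Single-cell libraries of the jaw from 3 groups of pooled mice were analysed, 1 library a group. The values the authors deposited are UMI counts per gene and cell, written by Cell Ranger 6.1.1 per the file headers; CASAVA 1.8, Seurat and the mm10 build appear in the submitters' processing notes. Replicates could not be compared, since each group is 1 library. UMIs of all cells of 1 class in 1 library were added up gene by gene, scaled to counts per 1000000 UMIs (CPM), and compared as ratios with exact conditional intervals, or as log2 ratios with 0.5 UMIs added to each sum, for genes with at least 20 UMIs over both sums. Shares have exact binomial (Clopper-Pearson) intervals. A ratio of ratios has an interval from the counts alone. The ratios of sums with their intervals, and the thinning of cells, were tested on simulated counts. Those simulated sums held no spread between cells. Each thinned value of the data rests on a single random draw, and the spread between draws was not measured. Intervals of shares and of ratios of ratios were not tested in this way. Cells were kept in Ctrl, 1d and 7d at 37306771, 43531347 and 44907164 UMIs in all, with median depths of 2463, 5196 and 3935. Doublets were not removed in the reported values, and removing the highest Scrublet scores (scanpy 1.11.5) was an alternative, as were TMM factors (edgeR 4.0.16). Named genes are list members with intervals furthest from 1 (up to 4 a side), up to 8 genes a side over the whole table, seen in at least 10% of cells with no cell holding over 20% of their UMIs, and a set list; not all are printed. The 113 cells and the 16 gene lists were chosen with earlier results of these data known. One gene is not reported here.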

Additional observations from a re-analysis of the deposited data

Results flagged for a closer look

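Foxp3 UMIs were also found in kept cells outside the limits used here: 43 cells in Ctrl, 10 in 1d and 14 in 7d, with 81, 12 and 29 Foxp3 UMIs. Of these cells 18, 6 and 6 had no CD3 UMI, 20, 4 and 7 had a single one, and 5, 0 and 1 had CD8 or B cell UMIs beyond the limits. They were noted because they lie outside the cells compared, at a level above what a count of 0 allows.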

How the results depend on the processing

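No paired analysis was possible because each group has 1 library. Of the share ratios, 63 of 67 values under other settings were counted as unchanged, as were 667 of 695 list medians. The same held for 3224 of 3454 values of named genes and 58 of 90 gene counts. Unchanged did not require the same direction where the main interval of a share ratio includes 1 or that of a median includes 0. The 1d share ratio among CD4-type T cells was 0.986 (0.471 to 1.87). It ran from 0.966 to 1.24 over 10 other settings, all counted as unchanged. With cells thinned to 1000 UMIs the 1d share ratio was 0 among kept and among CD3-positive cells, and no CD4-type cell was left in 1d. With a Cd4 UMI required the 7d ratio was 1.22 among kept cells, which turns its direction, and 0.643 among CD3-positive cells. Both intervals then include 1. The resting list median ranged from -2.15 to -0.35 in 1d and from -2.01 to -0.48 in 7d over 15 settings, and in 1d it was -0.35 thinned and -2.15 with a Cd4 UMI required. Counts of genes at least 2-fold higher and lower were as follows. In 1d they were 66 and 464 with TMM factors, 62 and 74 thinned, 43 and 99 with a Cd4 UMI required, 1172 and 1141 at 5 UMIs, 8 and 22 at 100 UMIs and 279 and 70 with a pseudocount of 2, and 140 were lower with at least 2 Foxp3 UMIs. In 7d they were 61 and 71 thinned, 98 and 129 with a Cd4 UMI required, 846 and 1161 at 5 UMIs and 18 and 35 at 100 UMIs. There 279 were higher with cells weighed equally, and 204 lower with at least 2 Foxp3 UMIs, 198 without the highest Scrublet scores and 194 without mixed cells. Against conventional CD4 cells they were 136 and 114 thinned, 770 and 1426 at 5 UMIs and 51 and 59 at 100 UMIs, and 271 were lower without the 3 deepest cells of each sum. Fewer genes or cells enter under most of these settings. Some log2 medians with a main interval clear of 0 turned. In 1d this was the glycolysis list (0.0665 thinned, 0.0203 with a Cd4 UMI required, 0.0270 with a pseudocount of 2). In 7d it was the IL-2 and STAT5 list (0.21 thinned, 0.0325 without the highest Scrublet scores). Medians with a main interval that includes 0 are not listed. Some of those also changed sign, such as the cycling list in 7d without mixed cells. Among named genes at least 2-fold apart in the main values, 3 kinds of comparison held log2 ratios that turned. These were Dusp2 (0.23 thinned) and Ccr2 (-2.44 without the 3 deepest cells) in 1d, and Tnfrsf9 in 7d (0.0724 thinned). Against conventional CD4 cells it was Slc7a11 (-0.18 with at least 2 Foxp3 UMIs, -4.03 with a Cd4 UMI required). The cause of these turns was not tested. Leaving out mixed cells or the 3 deepest cells was chosen after seeing the data. The 36504 UMIs of 1d limit every 1d value.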
